A study of Mus musculus with 12 samples.

Results

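Transcript levels of 9 genes that carry growth signals from phosphoinositide 3-kinase (PI3K) through Foxo3 and the mTOR kinase were examined in mouse oocytes with a deletion of Rnaseh1. The 9 genes were chosen by symbol, for their known place in the pathway, from 25162 genes in the deposited table. They are Foxo3, Pik3ca, Akt1, Pdpk1, Tsc1, Tsc2, Mtor, Rptor and Rps6kb1. Each was found on 1 line, and all 9 were among the 10110 genes that averaged at least 1 FPKM (fragments per kilobase of transcript, scaled to the mapped fragments of a library) over the table and were compared.

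KO oocytes carried an oocyte deletion of Rnaseh1, written Rnaseh1 oo–/–, and the control oocytes (WT) carried the floxed allele, written Rnaseh1 fl/fl. Rnaseh1 encodes ribonuclease H1, which cuts the RNA strand of RNA-DNA hybrids. Oocytes of both genotypes were taken at 3 stages labelled NGO, GO and FGO, the usual abbreviations of the non-growing, the growing and the fully grown oocyte. The labels list 12 samples, 2 for each genotype and stage, each of 10 pooled oocytes to which 100 pg of ERCC spike-in had been added. The driver of the deletion, the deleted exons, the strain and the ages of the mice were not given. The deposited values are FPKM adjusted by the authors to the spike-in, by a formula that is not stated. The table holds 1 column for each genotype and stage, and whether a column is a mean, a pool or 1 sample is not stated. No difference therefore has a replicate check, and none was tested.

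In the oocyte, KIT at the cell surface activates PI3K, whose lipid product brings PDPK1 and AKT to the membrane, where PDPK1 phosphorylates AKT. Active AKT phosphorylates FOXO3, which then leaves the nucleus, and it also inhibits the TSC1-TSC2 complex, which otherwise holds RHEB and mTOR complex 1 inactive. mTOR complex 1, made of MTOR, RPTOR and further subunits, phosphorylates the S6 kinase encoded by Rps6kb1 and thereby raises translation and cell growth. In mice, loss of Foxo3, Tsc1 or Tsc2 in oocytes is known to activate dormant primordial follicles too early. These controls act largely on proteins, which transcript levels do not show.

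Rnaseh1 stood at 0.931, 3.10 and 8.02 FPKM in KO oocytes at NGO, GO and FGO, against 8.61, 27.8 and 29.1 FPKM in WT oocytes. The KO columns thus kept 10.8%, 11.2% and 27.6% of the WT level, in the direction the labels give. All 16 oocyte markers looked up were at 1 FPKM or more in every column. Of 12 granulosa cell markers, 1, 1 and 7 reached 1 FPKM in KO oocytes over the 3 stages, against 0, 2 and 4 in WT oocytes, and their summed level was 4.90, 4.84 and 41.4 FPKM in KO oocytes against 2.29, 8.96 and 14.7 FPKM in WT oocytes. In the KO FGO column the 7 were Cyp19a1 at 10.4 FPKM, Inha at 9.32, Gja1 at 6.96, Nr5a2 at 4.52, Hsd17b1 at 3.71, Kitl at 3.19 and Fshr at 1.705 FPKM, while Foxl2 was at 0 and Amh at 0.282 FPKM. In the WT FGO column the 4 were Cyp19a1 at 6.16 FPKM, Nr5a2 at 2.24, Kitl at 1.59 and Inha at 1.17 FPKM. Markers of theca and stroma summed to 0.464 to 4.51 FPKM over the 6 columns, immune markers to 0.391 to 2.21 FPKM, with Adgre1 and Lyz2 at 0 in each, and endothelial and blood markers to 0.408 to 17.5 FPKM. The columns summed to 132093, 355744 and 729690 FPKM in KO oocytes, against 156837, 384421 and 460906 FPKM in WT oocytes. The column sum thus rises with stage in both genotypes and is higher in KO than in WT oocytes at FGO, so differences are given as deposited and again after median-ratio scaling, in which the typical gene is set to the same level in every column (rescaled). In such bulk samples, fewer oocytes of a kind and less RNA per oocyte cannot be told apart.

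The regions upstream of 3 genes are shown. In the results below, Foxo3 had the largest difference of the 9 between genotypes at NGO, and Rptor the largest fall between stages. Mtor is the partner of Rptor in the same complex. Sequences are from RefSeq, build GRCm38.p6, and run 5′ to 3′ on the strand of the gene, ending at the annotated start for Mtor and Rptor and 60 bases before it for Foxo3. Capitals mark the GC box, GGGCGG, and the CCAAT box, CCAAT, each on either strand.
Foxo3, chr10:42276756-42276945, minus strand: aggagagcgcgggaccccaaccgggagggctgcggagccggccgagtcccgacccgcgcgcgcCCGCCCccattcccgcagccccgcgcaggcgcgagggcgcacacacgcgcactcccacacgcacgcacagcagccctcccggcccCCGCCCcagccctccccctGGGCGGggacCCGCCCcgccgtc
Mtor, chr4:148448332-148448581, plus strand: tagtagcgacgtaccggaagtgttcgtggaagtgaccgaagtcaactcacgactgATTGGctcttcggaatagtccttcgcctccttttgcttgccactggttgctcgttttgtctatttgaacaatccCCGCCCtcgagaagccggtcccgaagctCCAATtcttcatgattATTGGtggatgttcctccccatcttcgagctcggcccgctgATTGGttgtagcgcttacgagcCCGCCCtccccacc
Rptor, chr11:119602655-119602904, plus strand: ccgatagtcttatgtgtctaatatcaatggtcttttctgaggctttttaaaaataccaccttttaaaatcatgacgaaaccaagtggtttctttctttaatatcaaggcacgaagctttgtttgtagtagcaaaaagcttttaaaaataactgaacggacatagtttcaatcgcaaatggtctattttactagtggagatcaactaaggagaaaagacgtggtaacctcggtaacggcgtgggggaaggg
Over 250 bases before the start, G and C made up 76.4% of the Foxo3 promoter, 54.4% of the Mtor promoter and 37.6% of the Rptor promoter, against a median of 52.4% over 32851 mouse promoters. These 250 bases held 5 GC boxes in Foxo3 (4 of them in the stretch shown), 2 in Mtor and 0 in Rptor, and 4 CCAAT boxes in Mtor and 0 in both Foxo3 and Rptor. The GC box occurred in 32.7% and the CCAAT box in 33.8% of the 32851 promoters. The letters TGTTTAC, the core bound by FOXO proteins, occurred in 3.17% of promoters on either strand and, among the 9 genes, in 1 of the Akt1 start regions only. No match in this window says only that these letters are absent from it.

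Gene positions are those of RefSeq on GRCm38.p6. Akt1 (chr12:112653821-112674884, minus strand), one of the genes for the AKT kinases, had the highest level of the 9 in every column. It stood at 10.9, 19.2 and 33.9 FPKM in KO oocytes at NGO, GO and FGO, and at 9.34, 26.1 and 21.3 FPKM in WT oocytes. Pdpk1 (chr17:24073680-24155619, minus strand), which encodes the kinase that phosphorylates AKT, stood at 3.88, 10.9 and 21.3 FPKM in KO oocytes and at 3.92, 13.0 and 12.3 FPKM in WT oocytes, ranking 2 or 3 of the 9. Pik3ca (chr3:32397065-32466112, plus strand), the catalytic subunit p110 alpha of PI3K, was last of the 9 at NGO in both genotypes, at 1.07 FPKM in KO oocytes and 1.21 FPKM in WT oocytes. Its levels at GO and FGO were 3.08 and 6.97 FPKM in KO oocytes and 5.39 and 6.88 FPKM in WT oocytes. Akt1 and Pdpk1 were thus above Pik3ca in all 6 columns.

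Foxo3 (chr10:42181845-42276695, minus strand), the transcription factor that AKT holds out of the nucleus, stood at 3.44, 5.85 and 8.31 FPKM in KO oocytes and at 1.58, 4.67 and 4.50 FPKM in WT oocytes. It ranked 4, 6 and 5 of 9 in KO oocytes and 7, 8 and 7 of 9 in WT oocytes over the 3 stages. Among the 10110 genes compared, its level lay at percentile 50.7 in KO NGO oocytes and at percentile 28.1 in WT NGO oocytes. The percentiles at FGO were 32.5 in KO oocytes and 32.6 in WT oocytes, so the gap in position was seen at NGO and not at FGO.

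Tsc1 (chr2:28640993-28691172, plus strand), the partner that stabilizes TSC2, stood at 1.48, 3.96 and 8.14 FPKM in KO oocytes and at 1.58, 5.72 and 5.38 FPKM in WT oocytes. Tsc2 (chr17:24595816-24632676, minus strand), the subunit that acts as GTPase activator on RHEB, stood at 1.65, 3.26 and 2.405 FPKM in KO oocytes and at 1.61, 1.74 and 0.949 FPKM in WT oocytes. The 2 subunits of the complex were near each other at NGO and apart at FGO, where Tsc2 was last of the 9 in both genotypes. Exons of Tsc2 share 693 bases, 7.20% of its exonic length, with Pkd1 on the opposite strand, and Pkd1 stood at 0.0731 to 0.398 FPKM over the 6 columns. Whether reads were counted by strand is not stated, so reads of the 2 genes over these bases cannot be told apart.

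Mtor (chr4:148448582-148557685, plus strand), the kinase of both mTOR complexes, stood at 5.34, 10.04 and 12.3 FPKM in KO oocytes and at 5.03, 9.26 and 6.55 FPKM in WT oocytes. Rptor (chr11:119602905-119899591, plus strand), which recruits substrates to mTOR complex 1, stood at 2.645, 5.86 and 4.48 FPKM in KO oocytes and at 2.81, 6.28 and 1.73 FPKM in WT oocytes. Rps6kb1 (chr11:86498869-86544885, minus strand), the S6 kinase, stood at 2.30, 7.78 and 15.7 FPKM in KO oocytes and at 3.15, 7.18 and 7.32 FPKM in WT oocytes. As deposited, Rptor was highest at GO in both genotypes and Rps6kb1 at FGO in both, though in WT oocytes its FGO level was only 1.02 times its GO level. Rescaled, Rptor was highest at NGO in both genotypes, and Rps6kb1 at FGO in KO oocytes and at NGO in WT oocytes. Exons of Rps6kb1 share 155 bases with Rnft1 and those of Rptor share 84 bases with Rptoros, each on the opposite strand. With 1 column per genotype and stage, no spread is known that would tell neighbours in these orders apart.

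**Figure D1:**
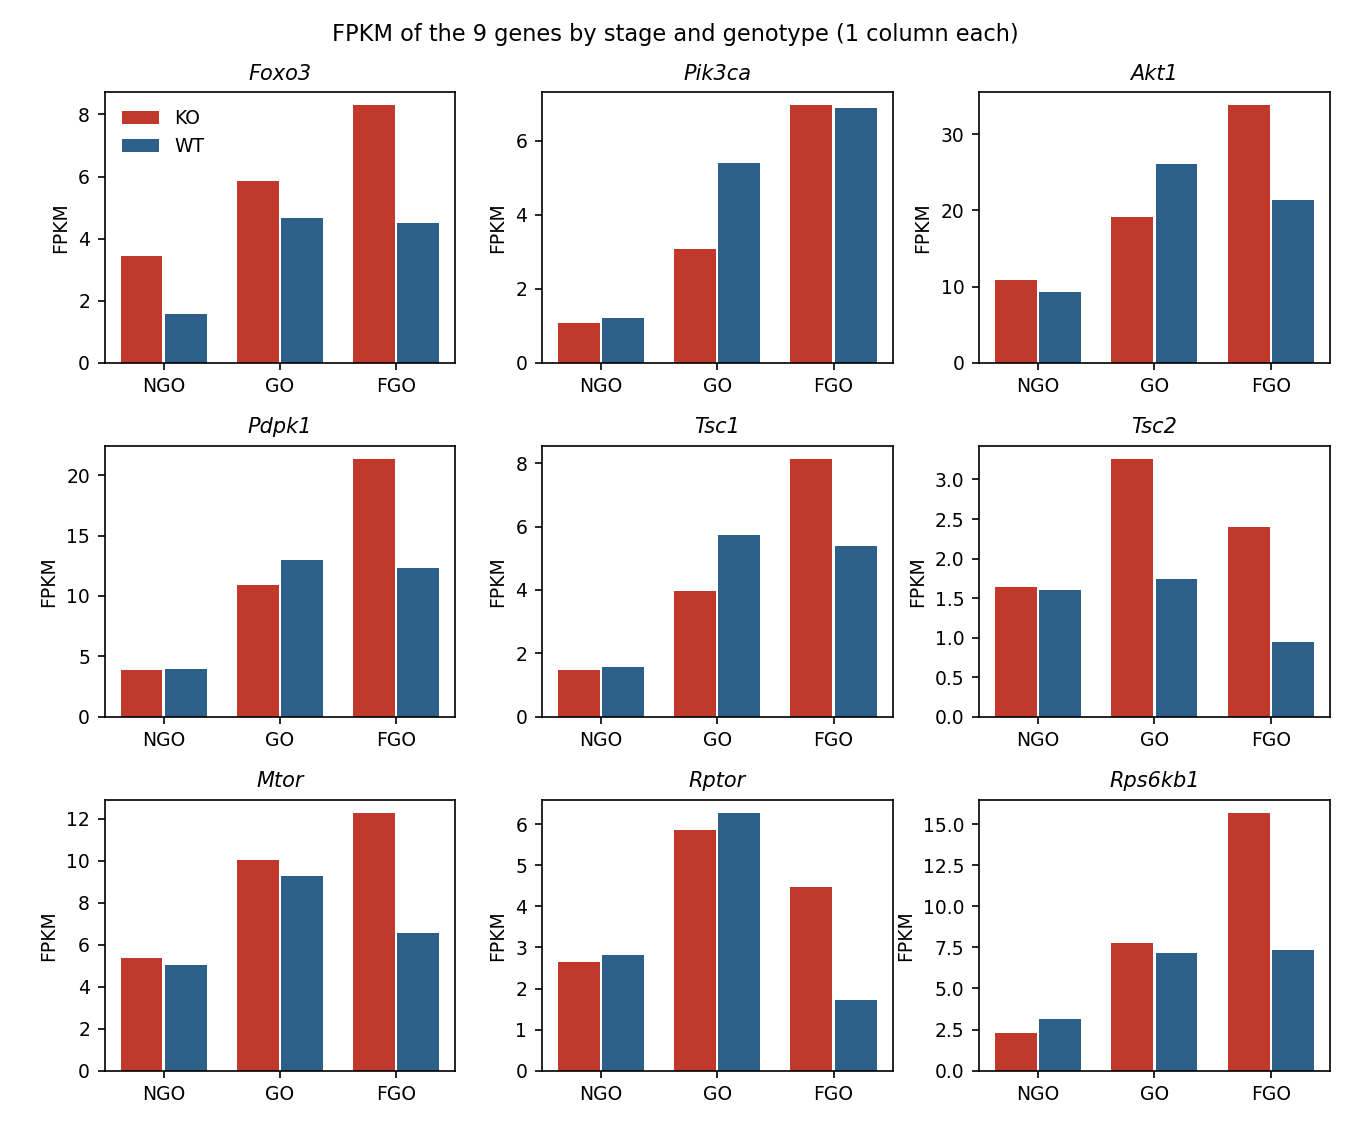
Level in FPKM (bars from 0, with an axis of its own for each gene) of each of the 9 genes at NGO, GO and FGO in KO and WT oocytes, 1 value per genotype and stage. Akt1 is highest in every column, and the KO and WT levels of Foxo3 at NGO, 3.44 and 1.58 FPKM, lie apart.

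At NGO, Foxo3 stood apart from the other 8 genes, whose KO over WT fold ran from 0.729 for Rps6kb1 to 1.17 for Akt1. Differences are KO minus WT of log2(FPKM + 1), and a gene was called at a size of 1 or more, which is 2-fold on that scale and understates low genes. The Foxo3 difference was 0.78, short of the call, and 6 of the 10110 genes compared had a larger one. As plain levels, 3.44 against 1.58 FPKM is a fold of 2.18. As deposited, 0 of the 9 genes were called, against 0.0297% of all compared genes called higher in KO and 0.326% called lower. Rescaled, Foxo3 was called at 1.08, where 0.129% of all genes were called higher and 0.356% lower, and 7 genes had a larger difference. The granulosa markers summed to 4.90 FPKM in the KO NGO column against 2.29 FPKM in the WT NGO column, and their part in the Foxo3 difference was not tested.

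The other 8 genes at NGO ran from -0.33 for Rps6kb1 to 0.20 for Akt1 as deposited. The median over the 9 genes was -0.01, against -0.11 over all compared genes. Rescaled, the medians were 0.15 over the 9 genes and 0.01 over all genes. Then 8 of the 9 genes were above 0, the exception being Rps6kb1 at -0.23, as were 51.3% of all genes. Of the 10110 genes, 19.2% had a lower difference than Rps6kb1 and 93.1% a lower one than Akt1, as deposited.

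At GO, 0 of the 9 genes were called in either direction, where 0.95% of all genes were called higher in KO and 2.03% lower. Tsc2 had the highest difference of the 9 at 0.64, with 3.26 FPKM in KO oocytes against 1.74 FPKM in WT oocytes. Pik3ca had the lowest at -0.65, with 3.08 FPKM in KO oocytes against 5.39 FPKM in WT oocytes. Tsc2 lay at percentile 94.8 and Pik3ca at percentile 9.79 of all genes, so both lay towards the edges of the distribution and short of the 2-fold call.

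Upstream of mTOR at GO, Akt1 differed by -0.43, Tsc1 by -0.44 and Pdpk1 by -0.24. Within mTOR complex 1 and below it, Mtor, Rptor and Rps6kb1 stood at 0.11, -0.08 and 0.10. Foxo3 stood at 0.27. The median over the 9 genes was -0.08 and over all genes -0.09, and rescaling moved none of the 9 genes to the other side of 0 or past the call, where it called 1.05% of all genes higher and 1.28% lower.

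At FGO, 2 of the 9 genes were called, both higher in KO, where 25.8% of all genes were called higher and 0.158% lower. Rptor stood at 4.48 FPKM in KO oocytes against 1.73 FPKM in WT oocytes, and Rps6kb1 at 15.7 FPKM in KO oocytes against 7.32 FPKM in WT oocytes. Both differences were 1.004, at the edge of the call, and Mtor at 0.81 and Tsc2 at 0.80 lay outside it. As plain folds, Tsc2 stood at 2.53, from a WT level of 0.949 FPKM, against 2.59 for Rptor, 2.14 for Rps6kb1 and 1.87 for Mtor. All 9 genes were above 0, as were 95.4% of all genes, and the medians were 0.76 over the 9 genes and 0.72 over all genes. The longest annotated transcript of each of the 9 genes has 2690 bases or more, as in 6148 of the 9941 compared genes of known length. Over those 6148 genes, which are most of the genes compared, the median was 0.74.

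Rescaled, 0 of the 9 genes were called at FGO, against 1.68% of all genes called higher and 0.94% called lower. Rptor then stood at 0.36, Rps6kb1 at 0.27, Tsc2 at 0.26, Mtor at 0.10, Foxo3 at 0.08 and Pdpk1 at 0.01, while Akt1 stood at -0.12 and Tsc1 at -0.15. Pik3ca lay farthest from the rest. Its level was 6.97 FPKM in KO oocytes against 6.88 FPKM in WT oocytes, a difference of 0.02 as deposited and -0.62 rescaled. Only 487 of the 10110 genes had a lower difference as deposited, which puts Pik3ca at percentile 4.82. The granulosa markers given above were higher in the KO FGO column than in the WT FGO column, and their part in these differences was not tested.

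**Figure D2:**
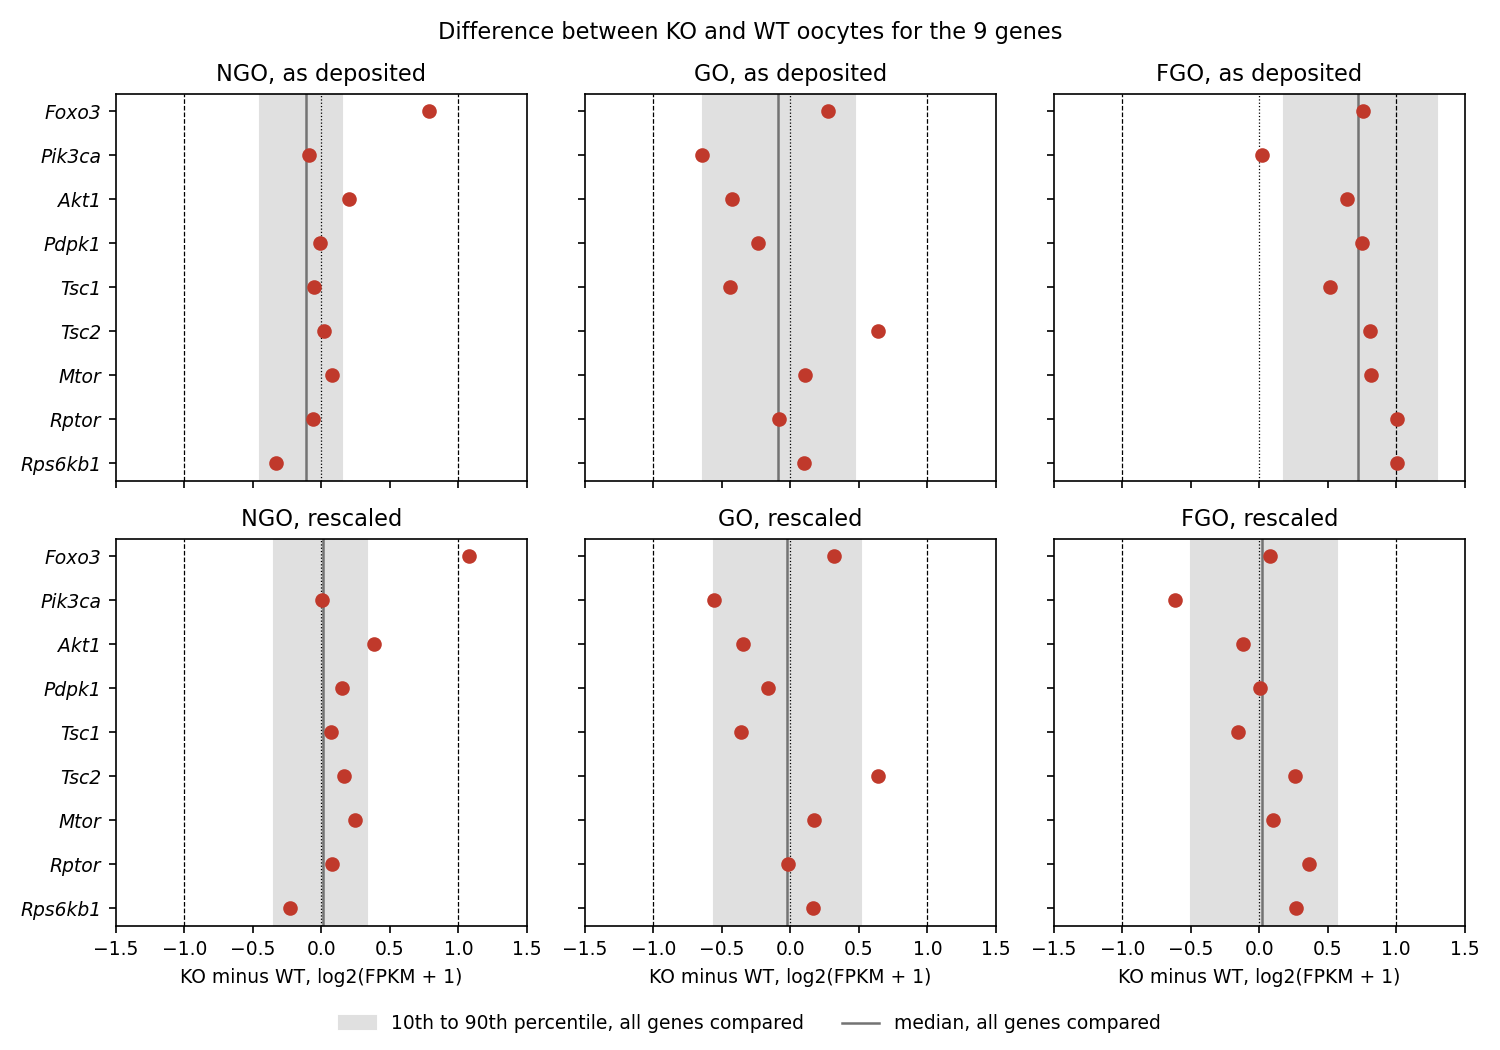
KO minus WT difference of log2(FPKM + 1) of each gene at NGO, GO and FGO, as deposited and rescaled, with dashed 2-fold bounds at 1 and -1, a line at the median of all compared genes and a grey band between their percentiles 10 and 90. Foxo3 at NGO passes 1 when rescaled (1.08), Rptor and Rps6kb1 at FGO reach it as deposited, and Pik3ca at FGO lies near 0 as deposited.

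Between NGO and GO, all 9 genes were higher at GO in both genotypes as deposited, as were 98.0% of all genes in KO oocytes and 96.8% in WT oocytes. Rescaled, 3 of the 9 genes were above 0 in KO oocytes and 5 in WT oocytes, against 48.3% and 49.5% of all genes. In KO oocytes 2 genes were called higher, Rps6kb1 at 1.41 and Pdpk1 at 1.28, where 57.6% of all genes were called higher and 0.089% lower. In WT oocytes 5 genes were called higher, where 54.8% of all genes were called higher and 0.129% lower. These were Pik3ca at 1.53, Pdpk1 at 1.51, Akt1 at 1.39, Tsc1 at 1.38 and Foxo3 at 1.14. In KO oocytes Tsc1 at 0.997 and Pik3ca at 0.98 lay just short of the call, and Akt1 and Foxo3 stood at 0.76 and 0.62. Mtor and Rptor stood at 0.80 and 0.91 in KO oocytes and at 0.77 and 0.93 in WT oocytes. The smallest WT difference of the 9 was 0.07 for Tsc2, against 0.69 for the same gene in KO oocytes. Rescaled, 0 of the 9 genes were called in either genotype, where 5.37% of all genes were called higher and 2.59% lower in KO oocytes, and 6.06% higher and 3.27% lower in WT oocytes.

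Between GO and FGO, Rptor fell in WT oocytes, by 1.41, where 9.22% of all genes were called lower and 6.5% higher, and it was the 1 gene of the 9 called in that step. In KO oocytes 0 of the 9 genes were called, where 0.514% of all genes were called lower and 39% higher. Rptor had the lowest difference of the 9 in KO oocytes too, at -0.325 as deposited and -0.96 rescaled, with Tsc2 close to it at -0.323 and -0.83. As plain folds of FGO over GO in KO oocytes, Tsc2 was the lower, at 0.738 against 0.764 for Rptor. Read against all genes, 453 genes had a lower difference than Rptor in KO oocytes and 435 in WT oocytes, so its place in the distribution was near the same in both genotypes. Rescaled, 0 of the 9 genes were called in KO oocytes, where 6.42% of all genes were called higher and 3.66% lower, and Rptor alone in WT oocytes, at -1.34, where 5.78% were called higher and 8.33% lower. Tsc2 stood at -0.32 in KO oocytes and -0.49 in WT oocytes, and the other 7 genes ran from 0.27 for Mtor to 0.97 for Pik3ca in KO oocytes and from -0.44 for Mtor to 0.30 for Pik3ca in WT oocytes.

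The shift of the KO minus WT difference between stages is above 0 where KO rose relative to WT oocytes. Whether a shift brings the genotypes together or apart depends on the difference at the earlier stage. From NGO to GO it was -0.63 for Akt1, -0.55 for Pik3ca, -0.51 for Foxo3, 0.43 for Rps6kb1 and 0.62 for Tsc2, and the other 4 genes ran from -0.39 for Tsc1 to 0.03 for Mtor. From GO to FGO it was above 0 for all 9 genes, as for 97.5% of all genes, and ran from 0.17 for Tsc2 to 1.07 for Akt1 and 1.09 for Rptor. These values are as deposited. Rescaled, 5 of the 9 genes were above 0 from GO to FGO, as were 52.3% of all genes, with Akt1 at 0.23 and Rptor at 0.38. These shifts share the GO columns.

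**Figure D3:**
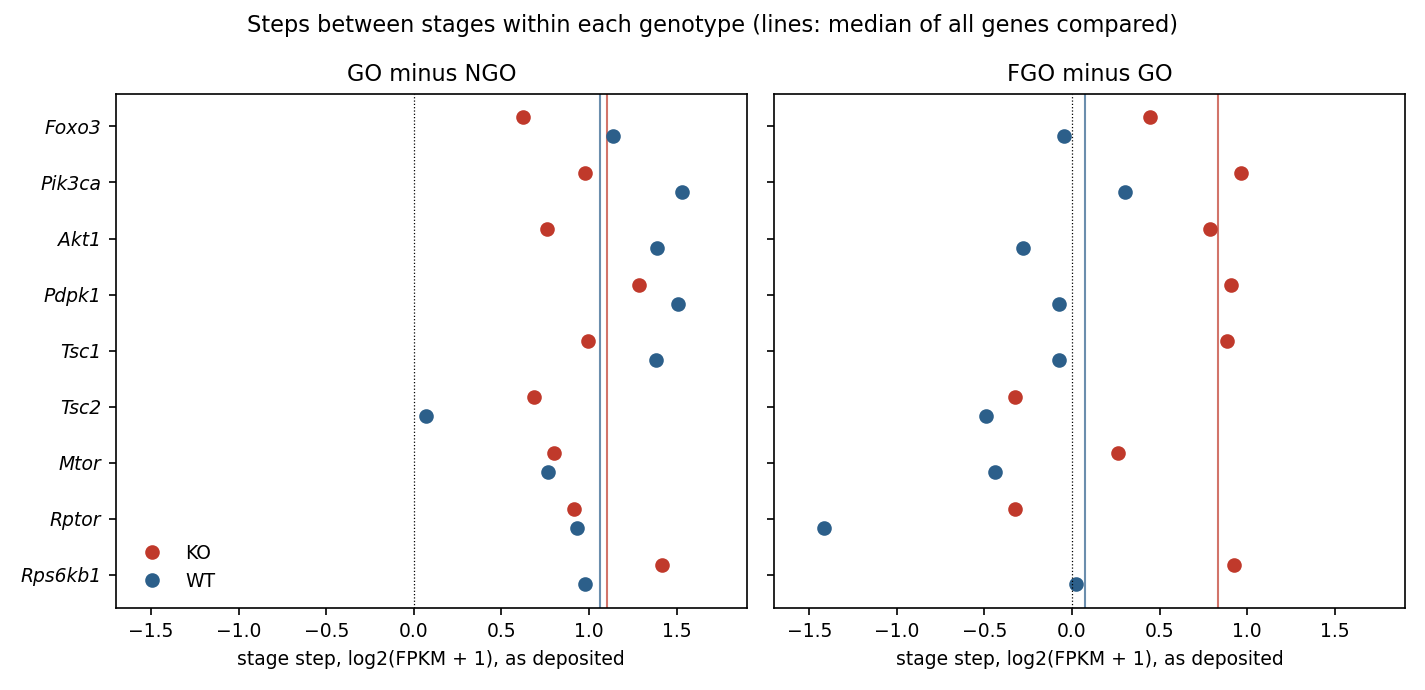
Stage steps of each gene, GO minus NGO and FGO minus GO, in KO and WT oocytes, as differences of log2(FPKM + 1) as deposited, with a line at the median of all compared genes in each genotype. Rptor in WT oocytes between GO and FGO, at -1.41, lies lowest of all points.

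Ratios of 2 genes within a column do not depend on how the column was scaled. The pairs below were taken from known partnerships after the values had been seen. Foxo3 over Akt1 was 0.316, 0.305 and 0.245 in KO oocytes at NGO, GO and FGO, against 0.169, 0.179 and 0.211 in WT oocytes. Foxo3 over Foxo1, another FOXO factor of the oocyte, was 0.777, 0.415 and 0.266 in KO oocytes, against 0.258, 0.166 and 0.142 in WT oocytes. Both ratios were higher in KO than in WT oocytes at all 3 stages, and the KO ratio over the WT ratio was lowest at FGO for both pairs, at 1.16 and 1.87. At GO, Akt1 and Foxo1 were themselves lower in KO than in WT oocytes, which raises both ratios. Foxo1 was lower in KO oocytes at NGO too, at 4.43 FPKM against 6.14 FPKM in WT oocytes. At FGO the rescaled difference of Foxo1 was -0.76, against 0.08 for Foxo3.

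Tsc1 over Tsc2 was 0.901, 1.21 and 3.38 in KO oocytes, against 0.983, 3.30 and 5.67 in WT oocytes. The 2 transcripts were near parity at NGO in both genotypes, and Tsc1 was the higher of them at GO and FGO. Rptor over Rictor, which marks mTOR complex 2, was 1.84, 1.19 and 0.373 in KO oocytes, against 1.43, 0.805 and 0.198 in WT oocytes. Mtor over Rptor was 2.02, 1.71 and 2.74 in KO oocytes, against 1.79, 1.47 and 3.79 in WT oocytes, highest at FGO in both. Rptor over Rictor was lower at each later stage in both genotypes, and it was higher in KO than in WT oocytes at each stage. Rictor stood at 1.44, 4.94 and 12.0 FPKM in KO oocytes, against 1.97, 7.80 and 8.76 FPKM in WT oocytes. At NGO and GO, Rptor was not higher in KO than in WT oocytes, and the lower Rictor raises the ratio. Foxo3 over Pik3ca was 3.21, 1.895 and 1.19 in KO oocytes, against 1.31, 0.867 and 0.654 in WT oocytes, higher in KO than in WT oocytes at each stage. Pik3ca was itself lower in KO than in WT oocytes at GO. At FGO the rescaled difference of Pik3ca was -0.62, against 0.08 for Foxo3, so the ratio there reflects Pik3ca more than Foxo3.

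**Figure D4:**
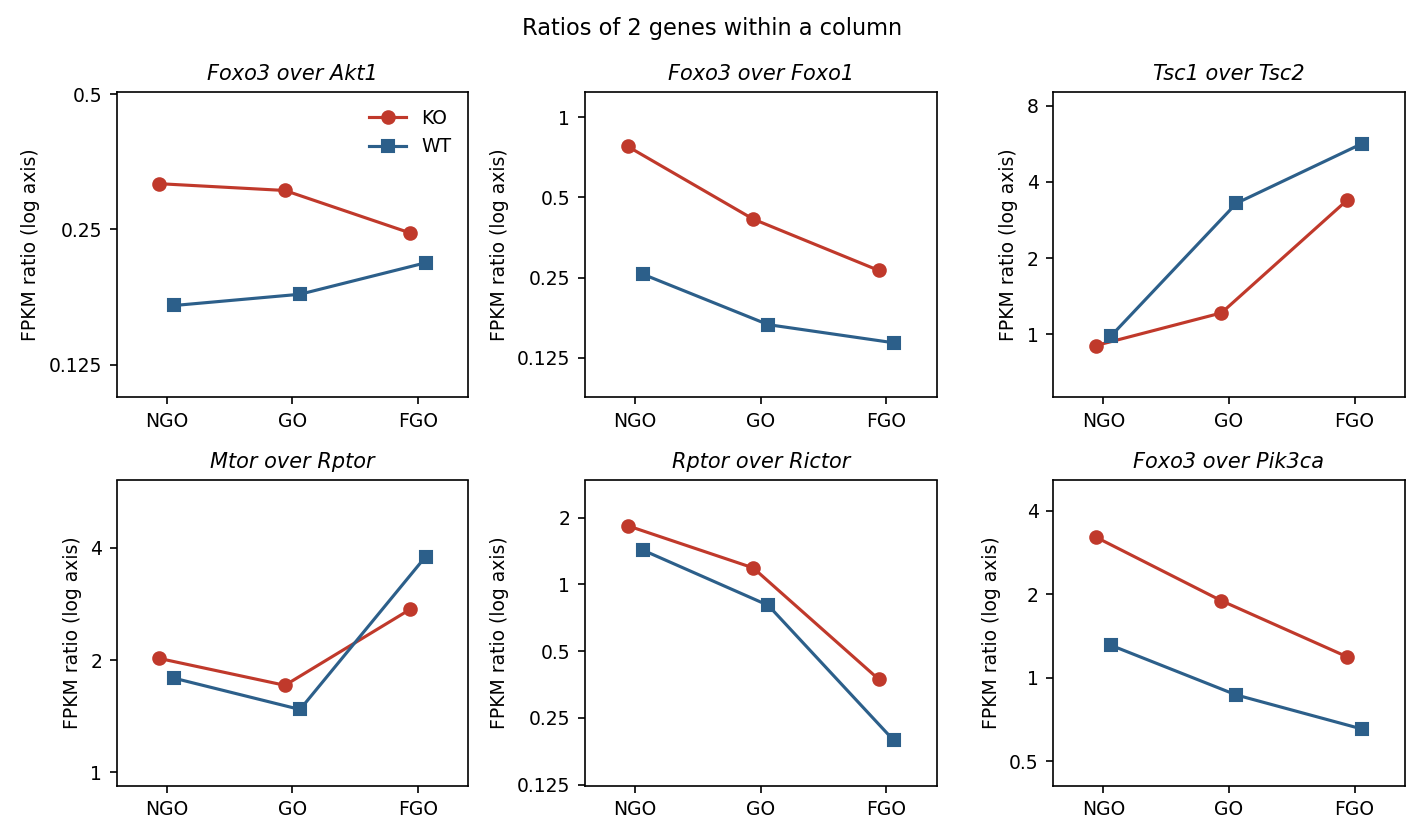
Ratio of the FPKM of pairs of genes within each column (log axis) at NGO, GO and FGO in KO and WT oocytes. Foxo3 over Akt1 is higher in KO oocytes at each stage, and Tsc1 over Tsc2 is lower in KO than in WT oocytes.

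Beyond the 9 genes, 150 other genes of the pathway were looked up in 12 lists by role, and 117 of them passed the level for comparison. At NGO, 0 were called in either direction, against 0.0297% of all genes called higher and 0.326% called lower. At GO, 1 of 117 was called higher and 1 lower in KO, 0.855% each, against 0.95% of all genes called higher and 2.03% lower. After rescaling, 1 of 117 was called higher and 0 lower, against 1.05% and 1.28% of all genes. Ddit4, a stress-induced activator of the TSC complex, stood at 4.98 FPKM in KO oocytes against 1.74 FPKM in WT oocytes (1.13), and Stk11, the kinase LKB1 that activates AMPK, at 6.16 FPKM in KO oocytes against 13.5 FPKM in WT oocytes (-1.02 as deposited, -0.93 rescaled). At FGO, 29 of 117 genes, 24.8%, were called higher and 0 lower, a share near the 25.8% of all genes. Rescaled, 0 were called higher and 2 lower at FGO, against 1.68% and 0.94% of all genes. The median differences of the 117 genes were -0.07, -0.08 and 0.66 over the 3 stages.

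The calls at FGO as deposited were spread over 11 of the 12 lists. They were 1 of 8 receptors and adaptors, 3 of 9 other PI3K subunits, 1 of 9 lipid and AKT phosphatases, 2 of 5 AKT-related and GSK3 kinases, and 2 of 8 other Foxo and 14-3-3 genes. Further down the pathway they were 4 of 13 FOXO targets, 2 of 4 genes for the TSC partner and RHEB, 3 of 10 other mTOR complex subunits, 4 of 23 RAG and amino acid sensing genes, 4 of 9 AMPK and LKB1 genes, 3 of 13 translation outputs and 0 of 6 autophagy outputs of mTOR complex 1. Among them, Tti2, a helper in the assembly of mTOR complexes, stood at 10.8 FPKM in KO oocytes against 2.47 FPKM in WT oocytes, and Rraga, a RAG GTPase that brings mTOR complex 1 to lysosomes, at 238 FPKM in KO oocytes against 87.9 FPKM in WT oocytes.

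Kit, the receptor at the head of the pathway, stood at 31.7, 86.3 and 107 FPKM in KO oocytes over the stages, against 26.6, 58.6 and 47.0 FPKM in WT oocytes. It was called higher in KO at FGO, at 1.17 as deposited and 0.39 rescaled. Pik3cd, another PI3K catalytic subunit, was singled out after its values were seen. It stood at 39.0, 117 and 148 FPKM in KO oocytes and 46.3, 129 and 97.7 FPKM in WT oocytes, well above Pik3ca in each column. Foxo1 stood at 4.43, 14.1 and 31.2 FPKM in KO oocytes and 6.14, 28.1 and 31.6 FPKM in WT oocytes, above Foxo3 in every column. Of the 13 FOXO targets compared, 0 were called at NGO or GO. Over all genes, 0.0297% were called higher and 0.326% lower at NGO, and 0.95% higher and 2.03% lower at GO. The medians of the 13 targets were -0.17 at NGO and -0.29 at GO, against -0.11 and -0.09 over all genes. At FGO the median was 0.71, against 0.72 over all genes. Rescaled, 6 of the 13 were above 0 and 7 below at NGO, 5 above and 8 below at GO, and 7 above and 6 below at FGO. Over all genes, 51.3%, 47.2% and 52.1% were above 0 at NGO, GO and FGO. Cited2 stood at 2.39 FPKM in KO oocytes against 4.59 FPKM in WT oocytes at NGO (-0.72), and Cdkn1b, a cell cycle inhibitor, at 1.65 FPKM in KO oocytes against 3.40 FPKM in WT oocytes at GO (-0.73). At FGO Cited2 lay the other way, at 65.5 FPKM in KO oocytes against 21.4 FPKM in WT oocytes (1.57 as deposited, 0.79 rescaled). Cat, the catalase gene and another target, was higher in KO than in WT oocytes at each stage. It stood at 3.25, 1.46 and 1.197 FPKM in KO oocytes and 1.76, 0.364 and 0.303 FPKM in WT oocytes.

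**Figure D5:**
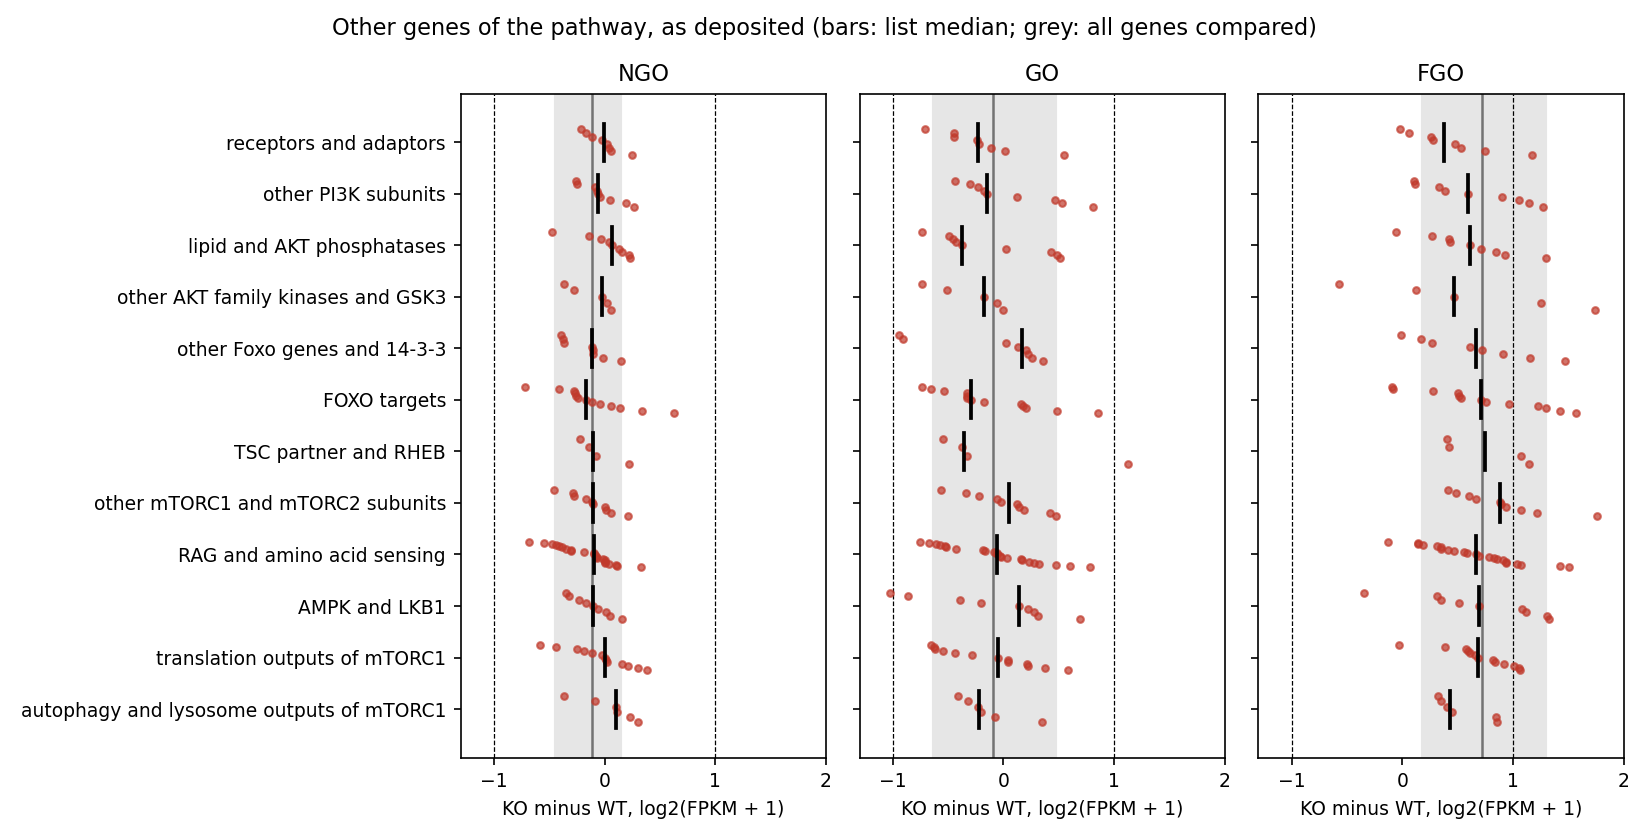
KO minus WT difference of log2(FPKM + 1) of the other pathway genes by list at NGO, GO and FGO, each point a gene, with a bar at each list's median, a grey line at the median of all compared genes and a grey band between their percentiles 10 and 90. At FGO most genes lie above 0, as over all genes, whose median is 0.72.

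The genes whose profile over the 6 columns lay nearest to each member were found by the root mean square distance between centred log2(FPKM + 1) profiles. Genes with provisional names, such as Gm numbers, Rik and ps names, were left out, so nearest means nearest among the rest. Nap1l1 lay nearest to Tsc1 at 0.024, Nlk nearest to Pik3ca at 0.044, Brf1 nearest to Akt1 at 0.035, and Dnajc1 nearest to Pdpk1 at 0.043. Foxo3 had the most distant nearest neighbour of the 9, Ndor1 at 0.14, followed by Denn2b and Klhdc4. Kif18b lay nearest to Mtor, Tmem200b to Rptor, Dpp9 to Tsc2 and Dbndd1 to Rps6kb1. Among the 9 genes themselves, Pdpk1 and Tsc1, and Akt1 and Tsc1, were closest at 0.135 each, and Pik3ca and Tsc2 were farthest apart at 0.897. Of the other genes compared, 2.66% lay nearer to Pdpk1 than Tsc1 did, and 3.01% nearer to Tsc1 than Pdpk1 did. For Akt1, 1.03% lay nearer than Tsc1.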

How the data were processed

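RNA from 10 pooled oocytes per sample was sequenced with a Smart-seq2 protocol and 100 pg of ERCC spike-in, per the labels. The deposited table holds spike-in adjusted FPKM, as its name states, for each genotype and stage. The submitters' processing notes name Trim Galore 0.6.7, HISAT2 2.2.1, Cufflinks 2.2.1 and the mm10 build, with no role or order. The annotation, the use of strand, and the formula of the adjustment and how 2 samples became 1 column were not stated, and depth is unknown, so no interval or floor is given. Of 25912 lines, 2 with spreadsheet error marks were left out, and 333 symbols on several lines kept their highest line by mean; no spike-in line and no mitochondrial gene is in the table. Differences of log2(FPKM + 1) were taken over the 10110 genes averaging 1 FPKM or more and called at a size of 1. The call after rescaling was tried on simulated columns, with large changes set in well expressed genes only. That trial did not check low genes, changes of 2-fold or calls on the values as deposited. Ranks, ratios and profile distances were computed with Python 3.11.15, pandas 2.3.3 and numpy 2.4.6, and promoters were read from RefSeq tables. All 9 genes entered every comparison; other pathway genes and the nearest profiles were named by size of rescaled difference and by distance, up to 3 each, with examples chosen among them. The genes and lists were chosen with earlier results of these data known. Alternatives were a pseudocount of 0.1, median-ratio scaling, equal column totals, no filter on low values and a minimum mean of 5 FPKM.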

Additional observations from a re-analysis of the deposited data

Results flagged for a closer look

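Tsc1 between GO and FGO had a difference of opposite sign in the 2 genotypes. It was 0.88 in KO oocytes and -0.08 in WT oocytes on log2(FPKM + 1), 0.12 and -0.09 after median-ratio scaling, and 0.0035 and -0.28 with equal column totals. Over all genes the medians of this step were 0.84 in KO oocytes and 0.08 in WT oocytes as deposited. Foxo3, Akt1, Pdpk1 and Mtor also had opposite signs as deposited, at 0.44, 0.79, 0.91 and 0.27 in KO oocytes and -0.05, -0.28, -0.08 and -0.44 in WT oocytes, and Tsc1 is singled out because its signs were opposite under all 3 scales. The difference between the genotypes was not tested, since each rests on 1 column per stage.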

How the results depend on the processing

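The number of the 9 genes called 2-fold depended on the scale of the columns. Between KO and WT oocytes at NGO it was 0 as deposited and 1, Foxo3, with a pseudocount of 0.1, with median-ratio scaling and with equal column totals. At FGO it was 2 as deposited, 3 with a pseudocount of 0.1, 0 with median-ratio scaling and 0 with equal totals. It was 1 among the 4 of the 9 genes that average 5 FPKM or more. For GO minus NGO, the 2 genes called in KO oocytes became 5 with a pseudocount of 0.1, 0 with median-ratio scaling and 0 with equal totals, and the 5 called in WT oocytes became 7 with a pseudocount of 0.1, 0 with median-ratio scaling, 0 with equal totals and 2 with that minimum of 5 FPKM. With a pseudocount of 0.1, the median of all compared genes for GO minus NGO was itself past the call, at 1.36 in KO and 1.28 in WT oocytes. Shares of all genes called were computed only as deposited and with median-ratio scaling, so the other counts have no share beside them. For FGO minus GO in KO oocytes, 0 as deposited became 3 with a pseudocount of 0.1 and 1 with equal totals, where Rptor stood at -1.08. In WT oocytes, 1 became 0 with that minimum, where Rptor was not compared. KO minus WT at GO gave 0 under every alternative run, and no difference of the 9 genes that was called changed sign. Of 81 single differences, 69 kept their side of the call with a pseudocount of 0.1, 69 with median-ratio scaling and 68 with equal totals. Leaving out a replicate was not run, since the table holds 1 column per genotype and stage. No paired analysis was possible because the columns carry no replicate numbers.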

Other observations

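After rescaling, 2 of the 117 other pathway genes were called lower in KO FGO oocytes, where 0.94% of all genes were. Gsk3a, a kinase that AKT inhibits, stood at 2.88 FPKM in KO oocytes against 4.75 FPKM in WT oocytes (-0.57 as deposited, -1.03 rescaled). Stk11, which encodes LKB1, stood at 11.1 FPKM in KO oocytes against 14.4 FPKM in WT oocytes (-0.35 as deposited, -1.02 rescaled). At GO, Stk11 was called lower as deposited (-1.02) and not after rescaling (-0.93).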
